A study of Homo sapiens with 14 samples.

Results

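The histone genes were taken as every gene whose symbol begins with H1-, H2AC, H2AX, H2AZ, H2AJ, H2BC, H3C, H3-3, H4C or MACROH2A and that has a probe set assigned to it alone. Of the 18129 genes measured, 75 met this rule. The pseudogenes H1-9P and H2BC20P and the antisense RNA H1-10-AS1 were set aside, which left 72 histone genes. Of these, 61 were clustered genes (H1-1 to H1-6 and the numbered H2AC, H2BC, H3C and H4C genes) and 11 were variants (H1-7, H1-8, H1-10, H2AJ, H2AX, H2AZ1, H2AZ2, H3-3A, H3-3B, MACROH2A1 and MACROH2A2). Each gene was represented by its probe set of highest mean over all arrays, with no limit on brightness.

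PANC-1 is an established human cell line from a pancreatic carcinoma. Cells grown in medium with 10% serum were kept for 24 hours in 1% serum and then treated for 48 hours, and their RNA was hybridised to 14 Affymetrix arrays. The 4 groups were vehicle control (4 arrays), TGFb1 at 5 ng/ml (4 arrays), TGFb1 with acriflavine at 2.5 µM (3 arrays) and TGFb1 with sodium valproate at 2 mM (3 arrays). The study is about epithelial-to-mesenchymal transition, which TGFb1 induces. Acriflavine is made up of acridine dyes, which bind nucleic acids, and valproate inhibits histone deacetylases. Neither inhibitor was given without TGFb1 in these arrays, so its effect on unstimulated cells was not measured. All groups are 1 cell line. The labels number the replicates without saying how they were cultured, so p-values measure only the spread between these arrays, which may be technical.

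Levels are given as log2 intensity, and a change is 1 group's mean level minus another's, ± its standard error (SE) from limma. Rose and fell are used of genes with a Benjamini-Hochberg adjusted p, over all 18129 genes, below 0.05. Array medians ran from 7.16 to 7.21. The array of TGFb1 replicate 4 stood farthest from its group, with an SD of 0.332 over all genes against 0.083 to 0.232 in the other 13 arrays, and results that turn on it are given with and without it. Over all 14 arrays the keratins KRT8, KRT18 and KRT19 had mean levels of 13.5, 13.7 and 12.5. The other markers listed for PANC-1, KRT7, EPCAM and VIM, had 9.35, 10.1 and 14.7. Leukocyte PTPRC (3.81), endothelial CDH5 (5.28) and fibroblast DCN, LUM and FAP (4.15, 4.06 and 3.69) were among the dimmest 20% of genes. The other markers listed for those cell types were brighter. CD3E, CD79A, LAPTM5 and CD68 were at 5.99, 6.84, 6.95 and 8.87. RGS5, PDGFRB, COL3A1 and COL1A1 were at 6.24, 6.32, 7.10 and 10.4, and PECAM1, VWF, KDR and ESAM at 6.13, 6.65, 6.78 and 8.17. Some of these differed by treatment: group means of COL1A1 ran from 8.28 with acriflavine to 12.8 with valproate. Those of ESAM ran from 6.86 in control to 9.60 with valproate.

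Histones package DNA into nucleosomes, in which pairs of H2A, H2B, H3 and H4 form the core and H1 binds the linker. Most of the supply comes from the clustered genes, which lie side by side mainly on chromosome 6, are transcribed chiefly in S phase and make mRNAs that end in a stem-loop in place of a poly(A) tail. The variants lie scattered in the genome, and most make polyadenylated mRNA through the whole cell cycle. The labelling used here starts from poly(A) tails, so a clustered gene's signal is that of its polyadenylated or internally primed RNA and is not its total transcript level. Coding sequences within a family are almost identical, and 8 of the 61 clustered genes were read by a probe set of the type _x_at, whose probes can bind other transcripts. Others, among them H2BC11, H4C8, H2BC8, H2BC4 and H2AC6, were read by a set of the type _s_at, whose probes can match several transcripts. Their changes may therefore not be those of a single gene.

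Many H2A and H2B genes stand head to head and share the stretch of DNA between their starts. RefSeq promoters (GRCh38.p14, 250 bases before the start) were found for 67 of the 72 genes, 56 clustered and 11 variant; H4C3, H4C1, H2AC12, H3C11 and H3C12 had none. Searched on both strands, CCAAT occurred in 49 of the 56 clustered promoters (87.5%) against 37.0% of the promoters of all 27305 genes, and TATAAA in 37 (66.1%) against 13.05%. The octamer ATTTGCAT occurred in 11 of 14 H2A, 14 of 18 H2B, 1 of 8 H3, 0 of 10 H4 and 0 of 6 H1 promoters, against 2.03% of all. GGTCCG occurred in 9 of 10 H4 promoters, 1 of 14 H2A, 1 of 18 H2B and 1 of 8 H3 promoters, against 11.3% of all. The motifs were chosen with the sequences in view, and a match is a description of the letters only. The stretches below are 4 shared H2B and H2A promoters, chosen because their genes are compared further on, and the last 150 bases before the starts of H4C8, the H4 gene with the largest change, and H2AX, a variant. Capitals mark these 4 motifs on either strand. In the H2BC21 stretch a GGTCCG overlaps a CCAAT read on the other strand.
H2BC8 to H2AC8, chr6:26216689-26216920, plus strand: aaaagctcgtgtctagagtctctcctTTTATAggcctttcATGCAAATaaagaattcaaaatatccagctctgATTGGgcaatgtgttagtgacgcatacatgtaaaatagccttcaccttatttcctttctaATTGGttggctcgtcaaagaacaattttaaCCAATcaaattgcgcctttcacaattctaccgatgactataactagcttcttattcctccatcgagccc
H2BC11 to H2AC11, chr6:27132796-27133042, plus strand: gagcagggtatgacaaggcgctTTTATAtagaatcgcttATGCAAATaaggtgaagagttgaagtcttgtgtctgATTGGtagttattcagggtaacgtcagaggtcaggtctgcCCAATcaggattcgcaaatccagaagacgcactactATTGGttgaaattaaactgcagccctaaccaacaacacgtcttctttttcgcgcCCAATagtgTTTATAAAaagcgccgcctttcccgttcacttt
H2BC4 to H2AC6, chr6:26123927-26124171, plus strand: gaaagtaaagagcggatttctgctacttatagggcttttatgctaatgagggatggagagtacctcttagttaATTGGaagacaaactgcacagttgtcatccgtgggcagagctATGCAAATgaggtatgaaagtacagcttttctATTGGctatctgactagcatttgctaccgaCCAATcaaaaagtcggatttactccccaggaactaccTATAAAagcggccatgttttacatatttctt
H2BC21 to H2AC20, chr1:149886683-149886917, plus strand: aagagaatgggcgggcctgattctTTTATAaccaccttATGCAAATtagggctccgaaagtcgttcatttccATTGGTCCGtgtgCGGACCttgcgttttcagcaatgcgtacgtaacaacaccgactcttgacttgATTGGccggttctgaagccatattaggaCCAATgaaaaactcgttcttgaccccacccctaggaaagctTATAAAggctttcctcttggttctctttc
H4C8, chr6:26285535-26285684, minus strand: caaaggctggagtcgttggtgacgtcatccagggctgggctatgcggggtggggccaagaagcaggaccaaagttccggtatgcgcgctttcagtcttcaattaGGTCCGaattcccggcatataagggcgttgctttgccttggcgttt
H2AX, chr11:119095466-119095615, minus strand: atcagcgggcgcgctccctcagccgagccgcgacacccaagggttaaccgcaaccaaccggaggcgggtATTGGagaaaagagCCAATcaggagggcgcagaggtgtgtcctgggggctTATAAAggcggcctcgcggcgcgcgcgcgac

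The shared stretches carry 3 or 4 CCAAT motifs and 1 octamer each. TATAAA occurs on both strands in those of H2BC11 and H2BC21, and once in those of H2BC8 and H2BC4. H4C8 has neither CCAAT nor the octamer in its stretch and has GGTCCG. The variant H2AX has 2 CCAAT motifs and a TATAAA like a clustered gene. Among the 11 variant promoters 9 held CCAAT, 4 held TATAAA and 1 held the octamer.

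TGFb1 against control asked what the cytokine did to the histone genes before any inhibitor was added. Few of them moved: of the 61 clustered genes 1 rose and 5 fell, against 5.03% and 6.05% of all genes, and the median change was 0.03 against 0.02 over all genes. Without TGFb1 replicate 4 the share of all genes called in either direction was 17.8% in place of 11.1%, while the clustered counts were again 1 and 5. None of the 11 variants passed in either direction (limma, 1 higher and 0 lower at an unadjusted p of 0.05). The gene that rose was H4C3, a histone H4 gene. All TGFb1 arrays lay above all control arrays in 4 clustered genes and below them in 6, where 6.37% and 6.72% of all genes did so. The 5 that fell were the H2A genes H2AC6 and H2AC8, the H2B genes H2BC5 and H2BC12 and the H3 gene H3C10.

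H2AC6 read 9.84, 9.50, 9.68 and 9.65 in the 4 control arrays and 9.29, 8.95, 9.26 and 8.38 with TGFb1. Every TGFb1 array lay below every control array, and the change was -0.70 ± 0.17 (SE; limma adjusted p = 0.0149). H2AC8 read 7.82, 7.76, 7.77 and 7.79 in control and 7.37, 7.40, 7.38 and 7.35 with TGFb1. The groups did not overlap (change -0.41 ± 0.07, limma adjusted p = 0.00201), but with the mean of its probe sets the change was -0.25 and did not pass (0.112). H3C10 fell by 0.47 (± 0.10, limma adjusted p = 0.0049), H2BC5 by 0.41 (± 0.09, limma adjusted p = 0.00561) and H2BC12 by 0.25 (± 0.06, limma adjusted p = 0.0203). With the mean of its probe sets H2BC12 gave -0.02 (limma adjusted p = 0.901). Fitted on these 2 groups alone, H2AC6 (limma adjusted p = 0.0651), H2BC5 (0.0508), H2BC12 (0.0971) and H4C3 (0.0769) no longer passed. In that fit 5.62% of all genes passed in either direction, in place of 11.1%.

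H4C3 read 12.90, 13.20, 12.99 and 13.16 in control and 13.26, 13.46, 13.42 and 13.65 with TGFb1, a change of 0.38 ± 0.10 (limma adjusted p = 0.0189). The groups did not overlap. Its call was lost without control replicate 1 (limma adjusted p = 0.0622) or control replicate 3 (0.0624), and that of H2BC12 without control replicate 1 (0.0538) or without replicates 4 of both groups (0.0558). The labels do not say what a replicate number marks, so a pairing of these arrays by number is only assumed. Deviations of same-numbered arrays correlated at 0.674 for replicate 4. Replicates 1 to 3 alone gave -0.210, 0.152 and 0.432. When the replicate number was entered as a block, H2BC12 no longer passed (limma adjusted p = 0.0858). In that fit H2BC21 at -0.47 (limma adjusted p = 0.0244) and H1-2, a linker histone, at -0.30 (0.0398) passed as lower.

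**Figure D1:**
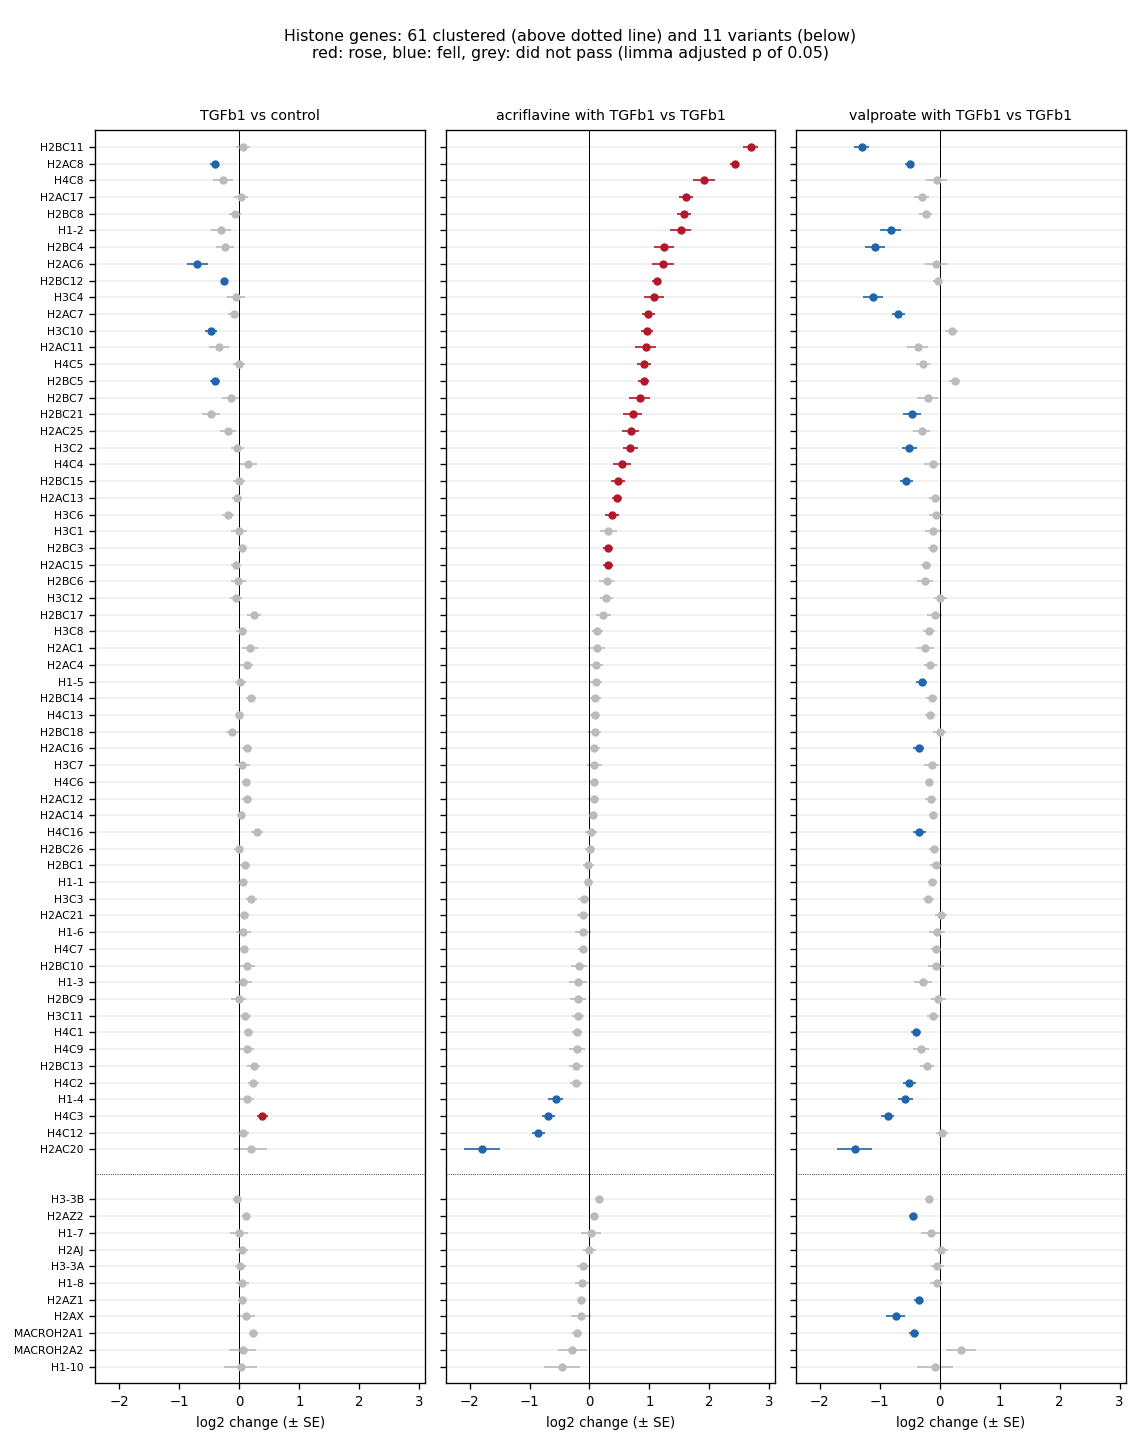
Log2 change ± SE of the 61 clustered genes (above the dotted line) and 11 variants (below it) in 3 comparisons, with genes that rose in red, genes that fell in blue and genes that did not pass in grey. Acriflavine shows 25 red and 4 blue clustered genes, valproate shows 17 blue clustered genes and 4 blue variants, and TGFb1 alone shows 1 red and 5 blue.

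Adding acriflavine to TGFb1 was set against TGFb1 alone. Clustered histone genes rose: 25 of 61 rose and 4 fell, against 16.4% and 12.3% of all genes, with a median change of 0.12 against -0.00. Of the 11 variants 0 rose and 0 fell (limma, 1 higher and 1 lower at an unadjusted p of 0.05), with a median of -0.12. With the replicate number as a block, a fit that also left out TGFb1 replicate 4, the variants H1-10 and MACROH2A2 fell. They also fell without a block when replicates 4 of both control and TGFb1 were left out. Of the clustered genes 10 rose by at least 1 on the log2 scale and 1 fell by as much, where 2.8% and 2.08% of all genes did so. All acriflavine arrays lay above all TGFb1 arrays in 28 clustered genes and below them in 6, against 18% and 14.4% of all genes.

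By family, 9 of 18 H2B genes, 8 of 15 H2A genes, 4 of 10 H3 genes, 3 of 12 H4 genes and 1 of 6 H1 genes rose. The falls were 1 H2A gene, 2 H4 genes and 1 H1 gene, and no H2B or H3 gene fell. Among the 17 clustered genes above the dimmest 40% of all genes (a mean of 6.88) 13 rose and 3 fell, where 23.1% and 18.0% of all genes above that limit did so. Among the 44 dimmer ones 12 rose and 1 fell, where 6.27% and 3.81% of all dimmer genes did so.

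H2BC11, an H2B gene, changed most. It read 7.07, 7.12, 7.29 and 7.34 in control, 7.46, 7.21, 7.41 and 6.95 with TGFb1, 10.05, 9.91 and 9.88 with acriflavine and TGFb1, and 5.96, 6.13 and 5.79 with valproate and TGFb1. The 3 acriflavine arrays stood above all others and the 3 valproate arrays below all others. The change with acriflavine was 2.69 ± 0.12, or 6.44-fold (limma adjusted p = 5.41e-09). Its other probe sets gave 0.98 (limma adjusted p over probe sets = 6.23e-06) and 0.05 (0.755), the second of them at a mean level of 4.45.

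H2AC8, an H2A gene, read 9.97, 9.70 and 9.70 with acriflavine and TGFb1, above the TGFb1 arrays given above and above control. Its change was 2.42 ± 0.08, or 5.34-fold (limma adjusted p = 2.99e-10), and 2.04 at its other probe set. H4C8 read 8.03, 7.58, 7.70 and 7.51 in control, 7.67, 7.52, 7.69 and 6.89 with TGFb1, and 9.36, 9.22 and 9.46 with acriflavine. Its change was 1.91 ± 0.18 (limma adjusted p = 2.21e-06), and the acriflavine arrays did not overlap either other group. H2AC17 rose by 1.61 ± 0.12 and H2BC8, head to head with H2AC8, by 1.57 ± 0.11 (limma adjusted p = 2.41e-07 and 1.61e-07).

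H1-2, a linker histone, read 9.77, 9.52, 9.56 and 9.06 in control, 9.41, 9.25, 9.36 and 8.68 with TGFb1, and 10.83, 10.70 and 10.55 with acriflavine. The change was 1.52 ± 0.18 (limma adjusted p = 1.79e-05), with no overlap. It was the only H1 gene of 6 that rose, and it was read by 1 probe set, of the type _x_at, with no other to compare. The brightest H2B gene, H2BC12, read 12.37, 12.38, 12.40 and 12.26 with TGFb1 and 13.54, 13.48 and 13.40 with acriflavine, a change of 1.12 ± 0.07 (limma adjusted p = 4.82e-08). H2BC4 rose by 1.24 ± 0.16, H2AC6 by 1.22 ± 0.18 and H3C4, the H3 gene with the largest rise, by 1.08 ± 0.17 (limma adjusted p = 4.35e-05, 0.000148 and 0.000188).

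The 4 falls were of single genes of 3 families. H2AC20 read 8.996, 9.44, 8.52 and 8.12 in control, 8.85, 9.51, 8.90 and 8.59 with TGFb1, 7.10, 7.41 and 6.99 with acriflavine, and 8.07, 7.45 and 7.11 with valproate. Both inhibitor groups lay below both other groups, and the change with acriflavine was -1.79 ± 0.29 (limma adjusted p = 0.000296). H4C12 fell by 0.85 (± 0.10, limma adjusted p = 2.37e-05), H4C3 by 0.69 (± 0.11, limma adjusted p = 0.000177) and H1-4 by 0.56 (± 0.12, limma adjusted p = 0.00327). H4C3 read 12.74, 12.81 and 12.73 with acriflavine, below all control and all TGFb1 arrays. A second H4C12 probe set gave -0.22 (limma adjusted p over probe sets = 0.145).

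Against control the direction of these changes was the same: 26 clustered genes were higher and 4 lower, where 17.6% and 13.8% of all genes were. Of the 25 that rose against TGFb1, 23 were also above control, and the 4 that fell were below it. H2AC6 was above control by 0.52 and H2AC8 by 2.01 (limma adjusted p = 0.0421 and 2e-09). H4C3 differed from control by -0.30 ± 0.11 (limma adjusted p = 0.041). The calls of H2AC6 and H4C3 against control were each lost without control replicate 2, 3 or 4 and without any 1 acriflavine array, with limma adjusted p from 0.0706 to 0.107 for H2AC6 and from 0.054 to 0.114 for H4C3. That of H4C3 was also lost with _x_at probe sets left out (-0.24, limma adjusted p = 0.125) and with the mean of its probe sets (-0.27, 0.0599). That of H2AC6 was also lost with cyclic loess (0.52, limma adjusted p = 0.0537). Deviations of same-numbered arrays of acriflavine with TGFb1 and of TGFb1 correlated at 0.107, 0.334 and 0.261. With the number as a block, which left out TGFb1 replicate 4, 26 clustered genes rose against TGFb1 and 7 fell.

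**Figure D2:**
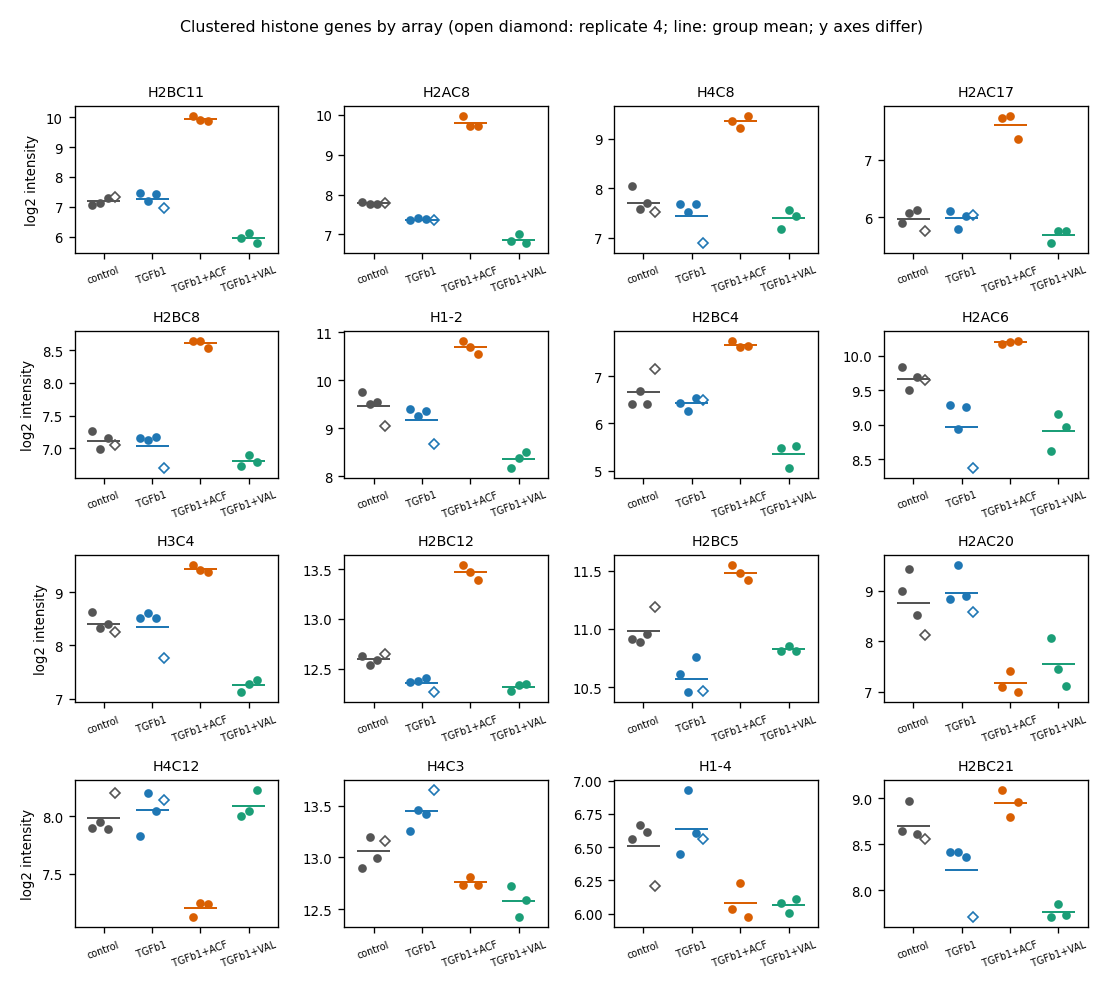
Log2 intensity in each of the 14 arrays of 16 clustered genes, with lines at the group means, open diamonds for replicate 4 and a y axis of its own in each panel. H2BC11 lies between 9.88 and 10.1 with acriflavine, between 6.95 and 7.46 with TGFb1 and between 5.79 and 6.13 with valproate, while H2AC20 is lower with both inhibitors.

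Adding valproate to TGFb1 was set against the same TGFb1 arrays. Clustered histone genes fell: 17 of 61 fell and 0 rose, against 10.2% and 11.5% of all genes (limma, 1 higher at an unadjusted p of 0.05). All valproate arrays lay above all TGFb1 arrays in 2 clustered genes and below them in 22, against 13.5% and 13.4% of all genes. The median change was -0.18 against -0.02 over all genes, and 56 of the 61 values were negative. Of the 11 variants 4 fell and 0 rose (limma, 0 higher at an unadjusted p of 0.05). The falls were 4 of 15 H2A, 4 of 18 H2B, 2 of 10 H3, 4 of 12 H4 and 3 of 6 H1 genes.

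The larger falls were of H2AC20 (-1.41 ± 0.29), H2BC11 (-1.30 ± 0.12), H3C4 (-1.11 ± 0.17), H2BC4 (-1.08 ± 0.16), H4C3 (-0.87 ± 0.11), H1-2 (-0.82 ± 0.18), H2AC7 (-0.69 ± 0.10) and H1-4 (-0.57 ± 0.12), with limma adjusted p from 4.33e-06 for H2BC11 to 0.00408 for H1-2. H3C4 read 8.63, 8.33, 8.41 and 8.26 in control, 8.52, 8.61, 8.52 and 7.76 with TGFb1, and 7.12, 7.27 and 7.36 with valproate. TGFb1 replicate 4 was the lowest array of its group, and the valproate arrays lay below it. H2BC4 read 6.43, 6.26, 6.53 and 6.50 with TGFb1 and 5.47, 5.06 and 5.53 with valproate, and H4C3 read 12.73, 12.42 and 12.59 with valproate. Neither gene's valproate arrays overlapped those of TGFb1 or control.

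Several genes that rose with acriflavine showed no passing change with valproate. H2BC12 differed by -0.03 ± 0.07, H4C8 by -0.05 ± 0.18 and H2AC6 by -0.05 ± 0.18 (limma adjusted p = 0.802, 0.894 and 0.896). H4C12, which fell with acriflavine, differed by 0.04 ± 0.10 (limma adjusted p = 0.856). H2BC8 differed by -0.23 ± 0.11 (limma adjusted p = 0.168) and, without TGFb1 replicate 4, by -0.35 (0.0063). H2AC17 differed by -0.30 (limma adjusted p = 0.0943) and passed without TGFb1 replicate 2 (0.0454). H2BC5, at 0.25 (limma adjusted p = 0.0704), passed as higher without TGFb1 replicate 3 (0.31, 0.027). Without TGFb1 replicate 4 the number of clustered genes that fell was 21, and without replicates 4 of both control and TGFb1 it was 23.

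Against control, 19 clustered genes were lower with valproate and TGFb1 and 0 higher, where 12.4% and 13.1% of all genes were (limma, 0 higher at an unadjusted p of 0.05). Of the 17 that fell against TGFb1, 14 were also below control. The difference from control was -1.31 ± 0.16 for H2BC4, -1.25 ± 0.12 for H2BC11 and -1.16 ± 0.17 for H3C4 (limma adjusted p = 2.99e-05, 3.49e-06 and 0.000117).

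The inhibitor comparisons share the TGFb1 arrays with each other and with TGFb1 against control, so their values are set side by side only. Of the 25 clustered genes that rose with acriflavine, 9 fell with valproate and 16 did not pass. Of the 4 that fell with acriflavine, H2AC20, H4C3 and H1-4 fell with valproate too. Of the 5 genes that fell with TGFb1, H2AC8 also fell with valproate (-0.50 ± 0.08). The inhibitor groups were also compared with each other, a comparison chosen after the data were seen. The acriflavine arrays were higher in 33 clustered genes and lower in 1, H4C12, against 18.9% and 16.6% of all genes, and the median difference was 0.36 against 0.02. The groups did not overlap in 43 clustered genes with acriflavine higher and in 1 with it lower, where 29.7% and 25.6% of all genes did so. H2BC11 differed by 3.99 ± 0.13, H2AC8 by 2.92 ± 0.09 and H1-2 by 2.33 ± 0.19 (limma adjusted p = 1.28e-10, 1.1e-10 and 3.43e-07). H2AC20 differed by -0.38 ± 0.31 and H1-4 by 0.01 ± 0.13 (limma adjusted p = 0.407 and 0.954).

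The variants were described 1 by 1, since each is a single gene with its own role. H2AZ1 and H2AZ2 encode the H2A.Z proteins, which mark promoters. H2AZ1 read 14.20, 14.19, 14.25 and 14.001 in control, 14.28, 14.17, 14.28 and 14.10 with TGFb1, 14.08, 14.08 and 14.07 with acriflavine, and 13.82, 13.88 and 13.87 with valproate. The valproate arrays lay below all others, at -0.35 ± 0.08 from TGFb1 (limma adjusted p = 0.00394). H2AZ2 read 13.06, 13.11, 13.01 and 13.16 with TGFb1 and 12.66, 12.54 and 12.72 with valproate, a change of -0.45 ± 0.07 (limma adjusted p = 0.000331).

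With acriflavine H2AZ1 differed from TGFb1 by -0.13 ± 0.08 and H2AZ2 by 0.07 ± 0.07 (limma adjusted p = 0.235 and 0.505). The 5 probe sets of H2AZ2 disagreed there: a pair of them rose (0.58 and 0.48), 1 fell (-0.35, limma adjusted p over probe sets = 0.0467) and the rest did not pass. H2AZ2 was the 1 gene with opposite calls among the 37 of these genes with several probe sets.

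H2AX encodes the variant that is phosphorylated at DNA breaks, and its mRNA exists in stem-loop and polyadenylated forms. It read 11.82, 11.85, 11.84 and 12.11 in control, 11.74, 12.11, 11.75 and 12.49 with TGFb1, 11.89, 12.02 and 11.72 with acriflavine, and 11.41, 11.10 and 11.36 with valproate. Both replicates 4 were the highest of their groups, and the valproate arrays lay below all others. The change with valproate was -0.73 ± 0.16 (limma adjusted p = 0.00374), and with acriflavine it was -0.14 ± 0.16 (0.586).

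MACROH2A1, a large H2A variant linked to silent chromatin, read 12.04, 12.08, 12.07 and 12.07 in control, 12.16, 12.25, 12.32 and 12.46 with TGFb1, 12.05, 12.15 and 12.05 with acriflavine, and 11.96, 11.83 and 11.81 with valproate. All TGFb1 arrays lay above all control arrays. Its fall with valproate was -0.43 ± 0.08 (limma adjusted p = 0.0011). The difference of TGFb1 from control, 0.23 ± 0.07 (limma adjusted p = 0.0537), passed without TGFb1 replicate 1 (0.28, 0.032), and so did that of acriflavine from TGFb1, -0.21 ± 0.08 (0.0578), at -0.26 (0.0305). MACROH2A2 read 8.08, 7.50, 7.73 and 6.76 in control, 7.63, 7.98, 7.62 and 7.06 with TGFb1, 7.29, 7.28 and 7.29 with acriflavine, and 7.89, 7.84 and 8.06 with valproate. It passed in none of the 6 comparisons when all 14 arrays were fitted with no block. Fitted on the inhibitor groups alone, it differed by -0.64 between acriflavine and valproate (limma adjusted p = 2.57e-05).

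H3-3B, which encodes the replacement histone H3.3, read 13.97, 13.985, 13.97 and 13.91 in control and 13.97, 13.87, 13.97 and 13.86 with TGFb1. It read 14.05, 14.07 and 14.11 with acriflavine, above all control and TGFb1 arrays, and 13.73, 13.71 and 13.76 with valproate. The change with acriflavine, 0.16, did not pass. It passed with a trended robust variance (limma adjusted p = 0.0128) and with the mean of probe sets (0.33, 0.0045). H3-3B was lower with valproate than in control, a call lost with the mean of probe sets (-0.14, limma adjusted p = 0.225). Its change with valproate was -0.18 ± 0.06 (limma adjusted p = 0.0607), and it passed without TGFb1 replicate 2 (0.0448) or 4 (0.0396). Against each other the inhibitor groups differed by 0.34 ± 0.07 (limma adjusted p = 0.00112). H3-3A encodes the same protein, but its single-gene probe set read 3.32 to 3.73 in all 14 arrays, brighter than 0.392% of genes, and the probe sets that read it together with H3P6 reached means of 13.4 and 13.7.

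H1-10, a linker histone encoded outside the clusters, read 11.99, 12.03, 11.89 and 11.02 in control, 12.14, 12.11, 12.06 and 10.72 with TGFb1, 11.36, 11.35 and 11.21 with acriflavine, and 11.62, 11.68 and 11.72 with valproate. Replicate 4 was the lowest array in both control and TGFb1, and the acriflavine arrays lay between it and the rest. The change with acriflavine was -0.45 ± 0.30 (limma adjusted p = 0.317), and without TGFb1 replicate 4 it was -0.80 (0.00396). With the replicate number as a block, H1-10 (-0.80, limma adjusted p = 7.83e-05) and MACROH2A2 (-0.46, 0.00533) fell with acriflavine. The block fit also left out TGFb1 replicate 4. With no block but without both replicates 4 the changes were the same, -0.80 and -0.46 (limma adjusted p = 6.55e-07 and 0.0109). Without both replicates 4, H1-10 also fell with valproate (-0.43, limma adjusted p = 0.000346). H2AJ, H1-7 and H1-8, the last an oocyte linker histone, stayed between 5.32 and 6.40 and did not pass in any comparison.

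**Figure D3:**
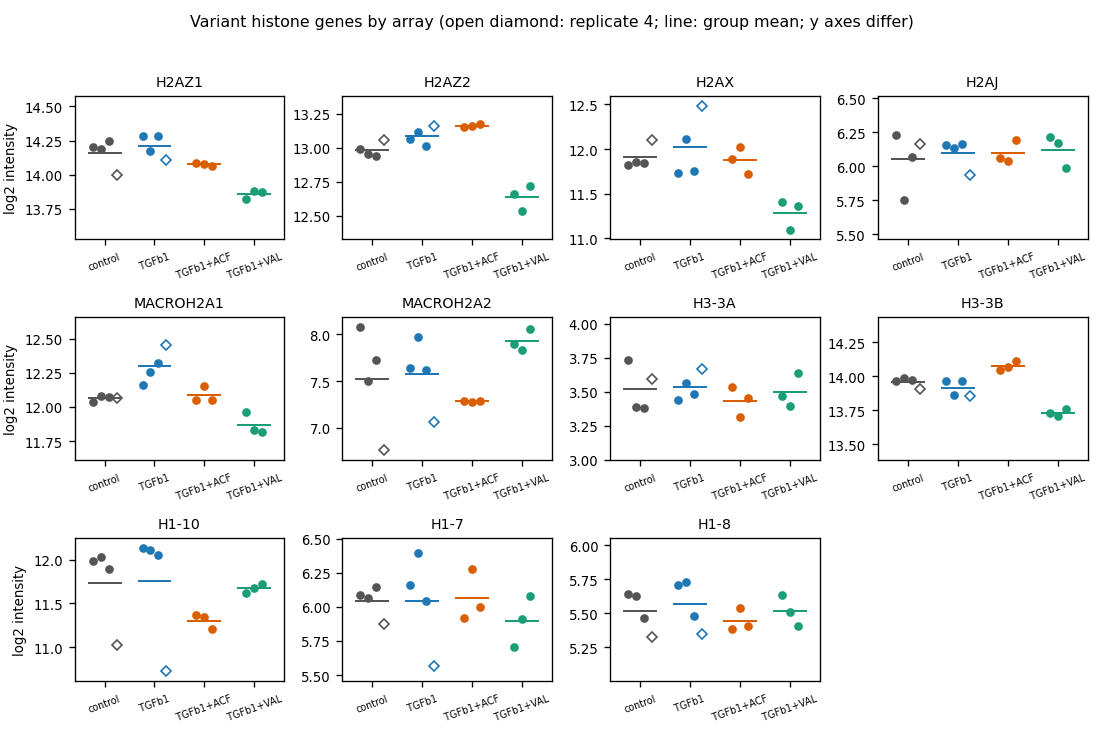
Log2 intensity of the 11 variants in each of the 14 arrays, with lines at the group means, open diamonds for replicate 4 and a y axis of its own in each panel. H2AZ1, H2AZ2 and H2AX are lowest with valproate, and H1-10 shows both replicates 4 below the rest of their groups, at 11.02 and 10.72.

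Set side by side, 25 of 61 clustered genes and 0 of 11 variants rose with acriflavine, and 17 of 61 and 4 of 11 fell with valproate. Only 7 variants had a mean above 6.88, and the 4 that fell were among them. Above that limit 8 of 17 clustered genes and 15.3% of all genes fell with valproate. The 0 depended on probe set choice. With the mean of probe sets H3-3B (0.33, limma adjusted p = 0.0045) and H2AZ2 (0.19, 0.0233) rose with acriflavine, and MACROH2A1 fell (-0.24, 0.0105). The difference between the classes was not tested. The mean of the clustered genes relative to control was 0.348 to 0.381 in the acriflavine arrays, -0.300 to -0.282 in the valproate arrays and -0.106 to 0.073 in the TGFb1 arrays. The variants lay between -0.072 and -0.016, between -0.172 and -0.095, and between -0.100 and 0.179 in the same groups. In the 17 brighter clustered genes TGFb1 replicate 4 was at -0.432, while the other 3 TGFb1 arrays were at -0.077 to -0.058.

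Genes of S phase entry also changed in the inhibitor groups. Of a list of 21, 15 rose and 1 fell with acriflavine, against 16.4% and 12.3% of all genes, and all 21 fell with valproate, against 10.2% (limma, 0 higher at an unadjusted p of 0.05). CCNE1, the cyclin of the G1 to S transition, rose by 0.96 ± 0.13 with acriflavine, and E2F1, a transcription factor for replication genes, by 0.89 ± 0.13. TK1 and TYMS, enzymes of thymidine nucleotide synthesis, fell by 1.58 (± 0.07) and 1.43 (± 0.09) with valproate (limma adjusted p = 6.54e-09 and 1.59e-07). With TGFb1 alone 6 of the 21 rose, among them CDC6 (0.44 ± 0.09), and 0 fell (limma, 0 lower at an unadjusted p of 0.05). Of all genes 5.03% rose and 6.05% fell there, and of the 61 clustered genes 1 rose and 5 fell. The list's mean was 0.646 to 0.678 above control in the acriflavine arrays and 0.632 to 0.769 below it in the valproate arrays. What part it has in the histone values was not tested.

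**Figure D4:**
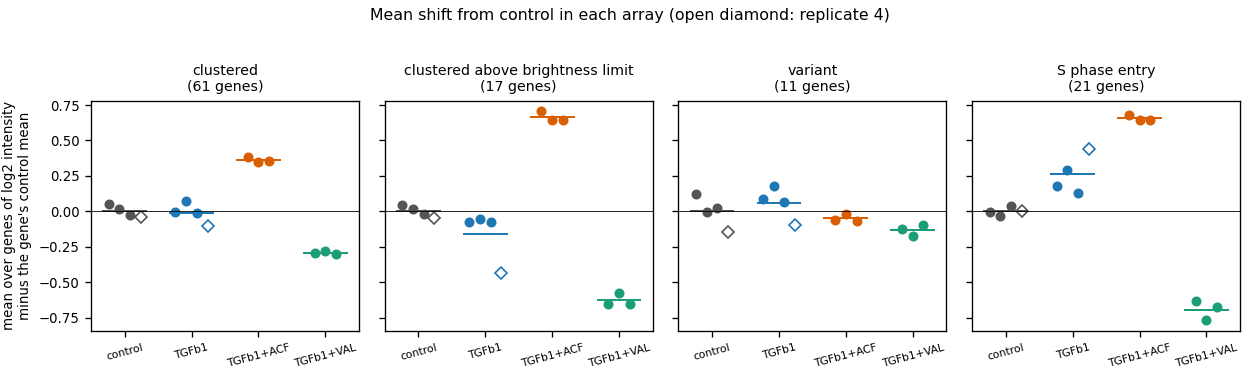
Mean over genes of log2 intensity minus the gene's control mean, in each of the 14 arrays, for clustered genes, the 17 brighter clustered genes, variants and 21 genes of S phase entry; lines mark group means and open diamonds replicate 4. Clustered genes lie at 0.348 to 0.381 with acriflavine and -0.300 to -0.282 with valproate, and variants lie closer to 0.

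Of 18 genes that make and process histone mRNA, 6 rose and 2 fell with acriflavine, against 16.4% and 12.3% of all genes, and 1 rose and 6 fell with valproate, against 11.5% and 10.2%. The medians were 0.15 and -0.30. SLBP, which binds the stem-loop of clustered histone mRNA, rose by 0.60 ± 0.17 with acriflavine (limma adjusted p = 0.0146). ZNF473, a zinc finger protein of the U7 snRNP that cuts histone pre-mRNA, rose by 0.83 ± 0.09 (limma adjusted p = 5.67e-06). ERI1, an exonuclease that trims the stem-loop, rose by 0.81 ± 0.11 with acriflavine and fell by 0.53 (± 0.11) with valproate (limma adjusted p = 7.51e-05 and 0.00309).

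Histone chaperones carry histones to DNA. Of 29 measured, 16 fell and 1 rose with valproate, against 10.2% and 11.5% of all genes. With acriflavine 6 rose and 5 fell, against 16.4% and 12.3%, and with TGFb1 3 rose and 1 fell, against 5.03% and 6.05%, shares near those of all genes. ASF1B, the chaperone of new H3 and H4, rose by 1.42 ± 0.12 with acriflavine and fell by 0.98 (± 0.12) with valproate (limma adjusted p = 7.17e-07 and 3.19e-05). Also on the list, OIP5 rose by 0.94 ± 0.17 and EP400 fell by 0.88 (± 0.09) with acriflavine (limma adjusted p = 0.000745 and 5.07e-06). HJURP, the chaperone of the centromeric H3 variant CENPA, fell by 1.23 (± 0.17) with valproate, and CENPA itself by 1.20 (± 0.26; limma adjusted p = 8.32e-05 and 0.00382). NAP1L1, an H2A and H2B chaperone, differed by 0.03 ± 0.08 with acriflavine and -0.14 ± 0.08 with valproate and did not pass.

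The genes of head-to-head pairs, which share a promoter stretch, were set side by side. Among 11 H2A and H2B pairs with starts 193 to 247 bases apart, both genes rose with acriflavine in 5 (H2BC8 with H2AC8, H2BC11 with H2AC11, H2BC4 with H2AC6, H2AC7 with H2BC7 and H2AC15 with H2BC15). In 3 pairs 1 gene rose, in 2 neither passed, and in 1 the genes moved opposite ways. With valproate both genes fell in 1 pair, 1 gene fell in 5 and neither passed in 5. These counts turn on TGFb1 replicate 4. Without it H2AC11 (-0.58, limma adjusted p = 0.000208), H2AC15 (-0.29, 0.00823) and H2BC8 (-0.35, 0.0063) fell too. Their partners H2BC11, H2BC15 and H2AC8 fell with all arrays. H2AC25 (-0.44, limma adjusted p = 0.0056) also passed there, while its partner H2BC26 did not pass with all arrays. Against control both genes were lower with valproate in 4 pairs. Taken singly, 8 of 15 clustered H2A and 9 of 18 H2B genes rose with acriflavine, against 16.4% of all genes. With valproate 4 of 15 and 4 of 18 fell, against 10.2%. Whether partners moved together beyond these shares was not tested. H2AC15 rose by 0.30 ± 0.08 (limma adjusted p = 0.0116), but gave 0.04 (0.832) with the mean of its probe sets and did not pass without acriflavine replicate 1 (0.0504). Partners outside the rule for named genes are given here because of their position, after their values were seen.

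Across the H2BC11 and H2AC11 stretch printed above, H2BC11 rose by 2.69 ± 0.12 and H2AC11 by 0.94 ± 0.17 with acriflavine. With valproate H2BC11 changed by -1.30 ± 0.12 and H2AC11 by -0.36 ± 0.17 (limma adjusted p = 0.17). H2AC11 read 8.58, 8.45, 8.49 and 7.64 with TGFb1 and 7.78, 8.03 and 7.97 with valproate, so that TGFb1 replicate 4 alone overlapped the valproate arrays, and without it the change was -0.58 (0.000208). Across the H2BC4 and H2AC6 stretch the changes with acriflavine were 1.24 ± 0.16 and 1.22 ± 0.18, while with valproate they were -1.08 ± 0.16 and -0.05 ± 0.18.

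The pair that moved opposite ways was H2BC21 and H2AC20, on chromosome 1. H2BC21 read 8.64, 8.97, 8.62 and 8.56 in control, 8.41, 8.42, 8.36 and 7.71 with TGFb1, 9.09, 8.80 and 8.96 with acriflavine, and 7.71, 7.85 and 7.73 with valproate. With acriflavine it rose by 0.72 ± 0.16 (limma adjusted p = 0.00268), while H2AC20 changed by -1.79 ± 0.29, and all 3 probe sets of H2BC21 rose, a pair of them with identical values, and both of H2AC20 fell. Against control H2BC21 differed by 0.25 ± 0.16 with acriflavine (limma adjusted p = 0.272). With valproate both fell, H2BC21 by 0.46 (± 0.16, limma adjusted p = 0.0498), a call that was lost without TGFb1 replicate 1 (0.128), 2 (0.115) or 3 (0.115) and without each valproate array (0.0851 to 0.145). The other H2BC21 probe sets gave -0.06 with valproate.

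**Figure D5:**
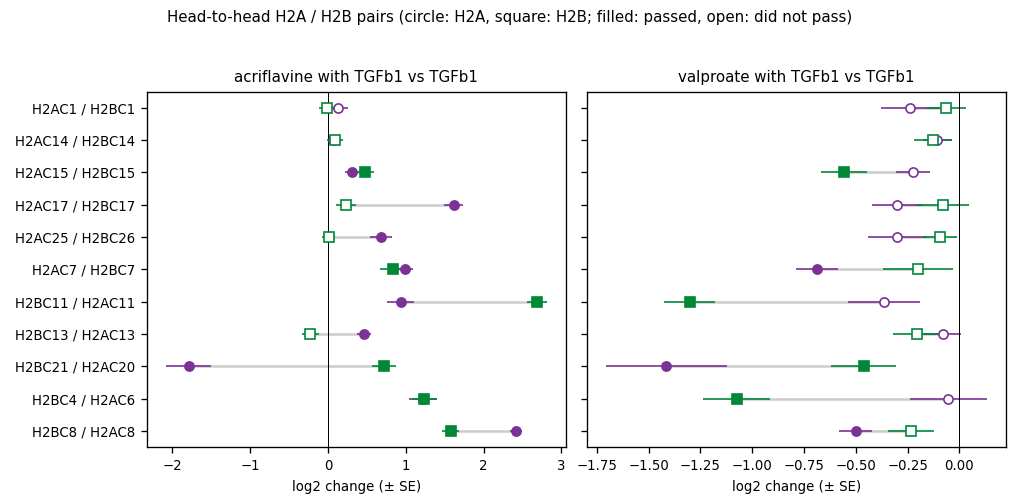
Log2 change ± SE of both genes of 11 head-to-head pairs against TGFb1, with circles for H2A genes, squares for H2B genes and open symbols where the gene did not pass; the x axes of the panels differ. With acriflavine 5 pairs lie to the right with both symbols filled and H2BC21 and H2AC20 lie on opposite sides of 0, and with valproate H2BC11 lies at -1.30 and its partner at -0.36.

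The position and promoter letters of the clustered genes were set beside their changes as a description. Of all genes 16.4% rose and 12.3% fell with acriflavine. Of the 49 with a promoter entry on chromosome 6, 23 rose and 2 fell with acriflavine. On chromosome 1 there were only 6, of which 2 rose and 1 fell. Of the 26 with the octamer 13 rose and 1 fell, and of the 30 without it 12 rose and 2 fell, with medians of 0.30 and 0.10. With valproate 8 of the 26 and 7 of the 30 fell, against 10.2% of all genes. The octamer lay mostly in H2A and H2B promoters, so motif and family cannot be told apart. The acriflavine medians with and without the other motifs were 0.08 and 0.30 for GGTCCG, 0.29 and 0.11 for TATAAA, and 0.23 and 0.03 for CCAAT. Only 7 promoters lacked CCAAT.

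Of the 104 probe sets of clustered genes 38 rose and 6 fell with acriflavine, and 0 rose and 22 fell with valproate. Of the 44910 probe sets tested, those that name 1 gene or include a histone gene, 14.2% rose and 13.1% fell with acriflavine and 9.91% rose and 9.94% fell with valproate. Of the 37 histone genes with several probe sets, all sets of a gene had the same call in 25 with acriflavine and 31 with valproate. Probe sets that read several histone genes were not counted as members. The brighter of those that read H2AC18 and H2AC19 together had means of 11.76 in control, 11.03 with TGFb1, 13.21 with acriflavine and 10.05 with valproate. Its changes were -0.73 ± 0.13 with TGFb1, 2.18 ± 0.14 with acriflavine and -0.98 ± 0.14 with valproate (limma adjusted p over probe sets = 0.00188, 9.01e-08 and 0.000159).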

How the data were processed

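Intensities were deposited on the log2 scale after RMA with affy 1.44.0, per the submitters' processing notes. RMA values carry no detection measure, so a dim gene has no known floor. Per the labels, 200 ng of total RNA was labelled with a 3′ IVT kit. All 14 arrays were used, with 49193 probe sets and no missing value; 44898 probe sets name 1 gene in the platform annotation, 1825 several and 2470 none. The probe set with the highest mean stood for each of 18129 genes, with no brightness limit. Group means were compared with limma 3.58.1 (lmFit and eBayes, R 4.3.3) over all 4 groups, with no covariate, and p-values were adjusted by Benjamini-Hochberg over all genes at 0.05. The fit was checked on simulated data. The number of arrays limits the precision.

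Symbols decided class: H1-1 to H1-6 and H2AC, H2BC, H3C and H4C numbers are clustered, the rest variants. The members and gene lists were chosen with earlier results of these data known. Named genes were all variants, the clustered genes with the 8 largest passing rises and 8 largest passing falls per comparison with TGFb1 or of TGFb1 with control, the 3 largest of each per inhibitor against control, the brightest clustered gene of each family, and, per list and comparison, up to 3 passing genes and the brightest that did not pass. Alternatives were probe set choice, a brightness limit, cyclic loess, a trended robust variance, fits on 2 groups, leaving out arrays and the replicate number as a block. Deviations of same-numbered arrays from their group means correlated at 0.318, 0.342, 0.419 and 0.674 for TGFb1 and control, and at 0.107, 0.334 and 0.261 for acriflavine and TGFb1. For TGFb1 and control, replicates 1 to 3 alone gave -0.210, 0.152 and 0.432. Pairing by number was read from the data alone and is not established. Other comparisons were not treated as paired. Promoter sequences are those of RefSeq for GRCh38.p14.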

Additional observations from a re-analysis of the deposited data

Results flagged for a closer look

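A single array stood apart from the other 3 of its group by Dixon's ratio in 9 of 76 groups of 4 arrays examined, where chance gives about 1 in 20. TGFb1 replicate 4 was the lowest array for H1-10 (10.72 against 12.06 to 12.14), H2BC8 (6.70 against 7.13 to 7.17), H3C4 (7.76 against 8.52 to 8.61), H2BC21 (7.71 against 8.36 to 8.42), H2AC11 (7.64 against 8.45 to 8.58) and H2AJ (5.94 against 6.13 to 6.16). Control replicate 4 was the lowest for H1-10 (11.02 against 11.89 to 12.03) and the highest for H2AX (12.11 against 11.82 to 11.85). Control replicate 2 was the lowest for H3C10 (5.91 against 6.09 to 6.10).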

How the results depend on the processing

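No scaling moved the median of all genes by over 0.1. Over all genes, TGFb1 against control gave 2009 calls, against 1018 with fits on 2 groups, 3235 without TGFb1 replicate 4 and 3141 without both replicates 4, and valproate against TGFb1 gave 3927, against 5980 without both replicates 4. Counts of histone genes that moved by over 1.5 times were as follows. With the dimmest 40% of genes left out, where 17 clustered genes and 7 variants remained tested, 13 clustered genes rose with acriflavine against TGFb1, 12 against control and 14 against valproate, 8 fell with valproate against TGFb1, 1 variant rose with TGFb1, 1 fell with acriflavine and 5 were higher with acriflavine than with valproate; fewer genes were tested there. With the mean of all probe sets, 3 clustered genes fell with TGFb1, 2 variants rose and 1 fell with acriflavine, 2 rose against control and 5 were higher than with valproate. With cyclic loess 1 variant rose with TGFb1, 1 fell with acriflavine and 1 clustered gene rose with valproate. With a trended robust variance 1 variant rose with TGFb1, 1 rose and 1 fell with acriflavine, 1 rose against control and 5 were higher than with valproate. With fits on 2 groups 0 clustered genes rose and 2 fell with TGFb1, and 5 variants were higher and 2 lower with acriflavine than with valproate. With the replicate block, which left out replicates 4 where an inhibitor group was compared, 7 clustered genes and 2 variants fell with acriflavine. Against control 1 variant rose and 2 fell with acriflavine, and 2 were lower than with valproate. In the comparison of valproate with TGFb1, which was not treated as paired, H1-10 passed with the block (limma adjusted p = 0.0267) and MACROH2A1 did not (0.054). Without replicates 4 of control and TGFb1, 2 variants fell with acriflavine, and against control 1 rose and 2 fell. Leaving out 1 array at a time, the clustered genes that rose and fell with TGFb1 numbered 0 to 1 and 4 to 6, with acriflavine 22 to 27 and 4 to 5 (against control 22 to 25 and 2 to 4), and with valproate 0 to 1 and 13 to 21 (against control 0 and 15 to 19); 28 to 33 were higher with acriflavine than with valproate. Variants that rose with TGFb1 numbered 0 to 1, that fell with acriflavine 0 to 1, that fell with valproate 4 to 5, that fell with valproate against control 2 to 4, and that were higher with acriflavine than with valproate 2 to 3. H2AC15 against control with acriflavine turned from 0.24 to -0.0225 (limma adjusted p = 0.907) with the mean of its probe sets. Of the other values for single genes, 2959 kept direction and side of the threshold, 85 passed anew and 69 no longer passed. The cause of these differences was not tested. Clustered genes are read through poly(A)-based labelling, many near the dim end, and dim values understate change.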
